A study of Rattus norvegicus with 12 samples.

Results

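The mature miRNAs of the imprinted Dlk1-Dio3 locus were followed in small RNA libraries from rat gastric mucosa. Members were taken by name: a mature miRNA belonged if its hairpin was 1 of 47 hairpins listed for the locus. The tables held rows for 46 of these hairpins and 83 mature miRNAs, out of 648 mature miRNAs in all, and miR-343 was not analysed here. Both arms were listed for 37 hairpins and 1 arm for 9. The rule itself uses names alone, though the locus was picked for description with earlier results of these data known.

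The study compared 3 groups of 4 libraries. Normal rats were labelled as untreated. Model rats carried chronic atrophic gastritis produced by a combined regimen. They drank N-methyl-N'-nitro-N-nitrosoguanidine (MNNG, a mutagen used to produce gastric lesions) at 180 µg/ml, were gavaged with 2% sodium salicylate, and alternated 2 days of food with 1 day of fasting. Their treatment label gives 24 weeks of MNNG. The XLHZ group is labelled with the same 24 weeks of MNNG and also with 60 days of Xianglianhuazhuo, a herbal formula. The salicylate and the fasting are described as parts of the model regimen, and no label exempts the XLHZ rats from them. All rats ate standard chow. The labels used here give no strain, sex or age. Whether each library of a group is a different rat is not stated, so every p-value rests on the spread between libraries alone, and that spread may be technical.

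The Dlk1-Dio3 locus is expressed by parent of origin. The chromosome inherited from the father expresses the protein-coding genes Dlk1, Rtl1 and Dio3, and the one inherited from the mother expresses long noncoding transcripts (Meg3, Rian, Mirg and the antisense transcript of Rtl1). The miRNA hairpins are cut from the maternal transcripts, so many miRNAs can come from 1 long precursor. The cluster is best known from brain, embryo and placenta, and some of its miRNAs are also studied in muscle and stromal cells.

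RefSeq (GRCr8) gave a mature sequence for 81 of the 83 members and placed every hairpin with a row on 1 chromosome, 44 on the plus strand and 2 on the minus strand. The deposited tables name no genome build, so only the order along the locus is used here and no coordinates. From the Dlk1 side, the order ran from miR-673 and miR-493 through the 8 hairpins at Rtl1 to miR-341 and miR-370, in the region of Rian. The 34 hairpins from miR-379 to miR-410 followed. Of the 8 hairpins at Rtl1, 5 (miR-431, miR-433, miR-127, miR-434 and miR-136) lie within the annotated Rtl1 gene; the other 3 are miR-337, miR-540 and miR-665. As background, miRNAs transcribed antisense to Rtl1 pair with its mRNA over their full length and direct its cleavage.

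The 8 most abundant members are shown first, because they carry most of the cluster's counts. The capitals mark the seed, bases 2 to 8 from the 5′ end, the stretch that chiefly selects target mRNAs.
miR-127-3p: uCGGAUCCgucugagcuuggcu
miR-434-3p: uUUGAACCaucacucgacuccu
miR-379-5p: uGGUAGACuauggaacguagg
miR-382-5p: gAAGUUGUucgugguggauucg
miR-136-3p: cAUCAUCGucucaaaugagucu
miR-411-5p: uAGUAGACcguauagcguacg
miR-369-3p: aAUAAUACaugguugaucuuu
miR-154-5p: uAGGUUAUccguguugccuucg
No seed was shared among these 8. Over all members with a sequence, 4 seeds were shared, each by a pair of members.

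A second set is shown because its counts depend on telling near-identical or complementary sequences apart.
miR-376b-5p: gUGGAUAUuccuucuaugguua
miR-376c-5p: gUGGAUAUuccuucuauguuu
miR-300-3p: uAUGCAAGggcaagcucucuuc
miR-381-3p: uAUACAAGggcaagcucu
miR-409b: aGGGGUUCaccgagcaacauucg
miR-409a-3p: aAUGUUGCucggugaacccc
miR-376b-5p and miR-376c-5p share the seed UGGAUAU and differ at 1 of 21 aligned bases, with 2576 and 43 counts over the 12 libraries. miR-300-3p and miR-381-3p differ at 1 of 18 aligned bases, with 3351 and 27 counts. miR-409b lies on the opposite strand from miR-409a-3p and is complementary to it over 20 bases without a mismatch, with 1761 against 25 counts. No source used here states the counting rule or its use of strand, so the levels of these members are uncertain to the extent that reads were split or moved between them. Members of the miR-376 family are also known substrates of adenosine-to-inosine RNA editing, and how edited reads were counted is not given.

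The members were a minor part of the small RNA in every library. Library totals ran from 9094962 to 11556058 counts. Levels are in CPM, each count taken relative to its library total, scaled between libraries by the trimmed mean of M-values (TMM). Of the 83 members, 22 had a mean of at least 10 CPM, 39 had a mean under 1 CPM and 31 never reached 10 counts in any library. Of the 22 more abundant members, 7 came from the hairpins at Rtl1 and 15 from the stretch miR-379 to miR-410. No arm of the upstream pair or of miR-341 and miR-370 reached that level. The 8 most abundant members held 61.4% ± 0.971 (SD, n = 4) of the cluster's summed CPM in normal mucosa, 61.0% ± 1.31 (n = 4) in the model group and 60.7% ± 0.981 (n = 4) in the XLHZ group.

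miR-127-3p, which is antisense to Rtl1 and complementary to its mRNA, was the most abundant member. It stood at 292, 213.9, 177.1 and 143.3 CPM in normal libraries 1 to 4. The model libraries had 170.3, 312.9, 162.5 and 204.7 CPM, and the XLHZ libraries 252.3, 243.2, 177 and 157 CPM. The highest library was model 2 and the lowest normal 4, and the 3 groups overlapped over most of their range. Group means were 206.6 ± 63.8, 212.6 ± 69.3 and 207.4 ± 47.5 CPM (SD, n = 4 each), in the order normal, model, XLHZ. The spread between libraries of a group came to 29.2% of the mean, against 2.13% from counting alone, so depth did not limit this value.

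miR-434-3p, another miRNA antisense to Rtl1, had 192.1, 115.7, 98.4 and 76.7 CPM in the normal libraries. It had 96.1, 209.5, 94.1 and 114.4 CPM in the model libraries and 133.5, 154.1, 94.1 and 72.5 CPM in the XLHZ libraries. Model 2 was again the highest library, and normal 1 came next. Its counts were between 0.462 and 0.670 of those of miR-127-3p in every library.

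miR-379-5p, from the first hairpin of the downstream stretch, had 104.4, 84.1, 63.7 and 49.7 CPM in the normal libraries. The model libraries had 60.5, 133.1, 51.6 and 91.9 CPM and the XLHZ libraries 119.4, 106.5, 97.6 and 66.4 CPM. The groups overlapped, with means of 75.5 ± 23.9, 84.3 ± 36.9 and 97.5 ± 22.6 CPM (SD, n = 4 each).

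miR-382-5p had 90.3, 60.7, 35.6 and 30.2 CPM in the normal libraries. It had 47.6, 100.1, 51.9 and 52.8 CPM in the model libraries and 54.5, 71.1, 59.2 and 38.6 CPM in the XLHZ libraries. Model 2 stood far above the other 3 model libraries, and the normal libraries covered a range nearly as wide. miR-136-3p, from a hairpin within Rtl1, had 89.0, 57.0, 34.9 and 22.0 CPM in the normal libraries. It had 42.8, 73.2, 36.1 and 63.9 CPM in the model libraries and 57.3, 72.5, 52.5 and 34.5 CPM in the XLHZ libraries. Its highest library held 4.04 times the level of its lowest, and both were normal.

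miR-411-5p, from the hairpin after miR-379, had 56.9, 44.97, 46.2 and 37.2 CPM in the normal libraries. It had 34.2, 54.3, 28.2 and 66.2 CPM in the model libraries and 87.9, 64.1, 60.7 and 37.3 CPM in the XLHZ libraries. Its order of libraries differed from that of miR-127-3p: XLHZ 1 was highest and model 3 lowest. miR-369-3p, known for binding the AU-rich element of the Tnf mRNA, had 62.4, 43.3, 33.7 and 24.0 CPM in the normal libraries. It had 36.7, 65.8, 45.7 and 38.8 CPM in the model libraries and 37.6, 47.0, 33.2 and 26.4 CPM in the XLHZ libraries. miR-154-5p had 49.0, 42.4, 28.1 and 20.2 CPM in the normal libraries. It had 31.7, 59.7, 29.3 and 40.2 CPM in the model libraries and 47.8, 51.7, 41.6 and 32.8 CPM in the XLHZ libraries. For both of these members model 2 was the highest library and normal 4 the lowest.

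**Figure D1:**
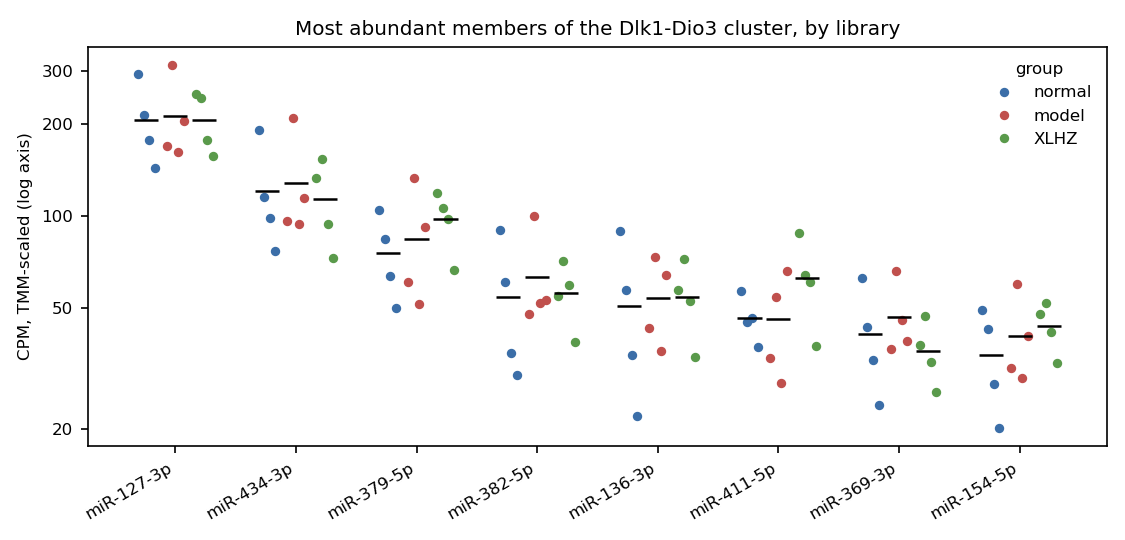
Level of the 8 most abundant members in each of the 12 libraries, as TMM-scaled CPM on a log axis. Points are libraries coloured by group and short bars are group means (n = 4); the 3 groups overlap for every member shown, and the range within each group exceeds the distance between group means.

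The cluster varied most between libraries of the same group. Summed over all 83 members, the normal libraries had 1493, 1073, 850.6 and 666.2 CPM. The model libraries had 871.2, 1630, 800.7 and 1119 CPM, and the XLHZ libraries 1300.0, 1343, 994.2 and 781 CPM. Group means were 1021 ± 356, 1105 ± 375.4 and 1104 ± 266 CPM (SD, n = 4 each). The highest normal library had 2.24 times the sum of the lowest, the highest model library 2.04 times and the highest XLHZ library 1.72 times. In bulk tissue, fewer cells that express the cluster and less of its RNA per cell cannot be told apart.

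The composition of the cluster moved less than its sum. The hairpins at Rtl1 gave 47.1% ± 3.04 of the summed CPM in normal mucosa, 46.1% ± 0.554 in the model group and 44.2% ± 1.61 in the XLHZ group (SD, n = 4 each). miR-127-3p alone gave 20.5% ± 0.879, 19.3% ± 0.833 and 18.9% ± 1.09. Both shares overlapped between the groups.

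The rise and fall from library to library was common to nearly all members with enough counts to follow. For the 29 members with a mean of at least 50 counts, each log2 level was taken as its deviation from that member's mean over the 12 libraries. The median deviation was 0.47, 0.09, -0.28 and -0.72 in normal libraries 1 to 4. It was -0.25, 0.65, -0.35 and 0.10 in the model libraries and 0.33, 0.39, -0.01 and -0.40 in the XLHZ libraries. In XLHZ 2, 29 of the 29 members lay above their own mean, in model 2 it was 28 and in normal 1 it was 27. In normal 4 none did, in normal 3 it was 1 and in XLHZ 4 it was 2. High and low libraries occurred in each of the 3 groups.

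**Figure D2:**
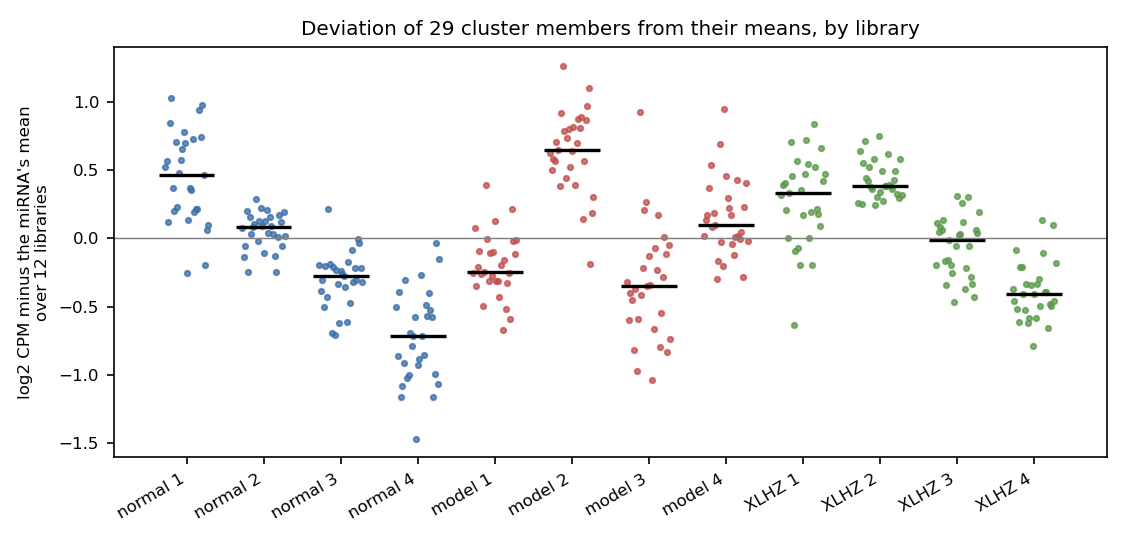
Deviation of each of 29 members from its own mean over the 12 libraries, in log2 units of TMM-scaled CPM, by library. Points are members, jittered sideways, and bars are medians; the medians run from -0.72 in normal 4 to 0.65 in model 2, and each group holds libraries above and below 0.

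With the group means removed, pairs of these 29 members had a median Pearson r of 0.794 over the 12 libraries, and 98.3% of the 406 pairs had a positive r. Among 297 other miRNAs with a mean of at least 50 counts the median r was 0.00 over 43956 pairs, and 50.0% were positive. These are descriptions: all points come from the same 12 libraries and share their depth and scaling, and some pairs are the 2 arms of 1 hairpin. With 1 arm kept per hairpin (24 members) the median r was 0.783. Leaving out each library in turn gave 0.765 to 0.831, and scaling to library totals gave 0.782. The median within-group SD was 0.494 log2 units for the members and 0.299 for the others, which were not matched on abundance and include far more abundant miRNAs.

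Some miRNAs from outside the locus followed the members. The correlation of each with the members' median deviation, with group means removed, was highest for miR-101a-5p (r = 0.80), miR-421-5p (0.79), miR-29b-3p (0.78) and miR-384-3p (0.77). Of the 297 other miRNAs, 30 had an r of at least 0.5 and 72 had an r of -0.5 or lower. The lowest were miR-425-5p, miR-25-3p, miR-106b-3p and let-7b-5p (-0.87 each), followed by miR-200b-5p (-0.86), an epithelial miRNA. miR-1193-3p, which RefSeq places within the locus but which was not in the name list, stood at 5.28 ± 0.921, 5.22 ± 1.90 and 7.91 ± 2.06 CPM (SD, n = 4 each).

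Markers of other cell types were read in the same libraries, from lists of hairpins. miR-143 and miR-145, which are most abundant in smooth muscle and other stromal cells, summed to 181600 ± 40840 CPM in normal mucosa. They summed to 280100 ± 120300 CPM in the model group and 178100 ± 78130 CPM in the XLHZ group (SD, n = 4 each). Their range was 97610 to 403500 CPM, with XLHZ 1 lowest and model 2 highest. The epithelial list, 18 rows that include the miR-200 family and miR-375, ranged from 77920 CPM in model 2 to 120500 CPM in XLHZ 1. The mucosal epithelium named by the tissue label was therefore represented in every library, together with abundant muscle miRNAs. No row of either list was at 0 in all libraries. Model 2 thus had the most summed cluster RNA, the most smooth muscle miRNAs and the lowest sum of the epithelial list. Model 3 and XLHZ 1 went against that pairing. Model 3 had 356100 CPM of smooth muscle miRNAs beside a low cluster sum. XLHZ 1 had the least smooth muscle miRNA and the highest epithelial list sum beside a high cluster sum. Of the 18 epithelial rows, only miR-200c-3p and miR-375-3p are given singly here. Their lowest and highest libraries were not those of the list sum. Both were lowest in model 3 (1091 and 5229 CPM), below model 2 (1847 and 12850 CPM). They were highest in normal 4 (3172 CPM) and normal 2 (19630 CPM), in that order. The striated muscle list ranged from 4650 to 24460 CPM and the list for neurons and enteric nerves from 5051 to 7400.0 CPM, with miR-124-3p, the most specific neuronal marker, at 1.16 to 9.2 CPM. The lists for fibroblasts (10580 to 15160 CPM) and endothelium (18190 to 26830 CPM) varied less than the cluster, and leukocytes (4469 to 12290 CPM) more. The part of tissue composition in the cluster's level was not tested.

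The members differed in how they followed the smooth muscle miRNAs, a pattern chosen after its values were seen. The smooth muscle deviation, the mean log2 deviation of 4 rows (miR-143-3p, miR-143-5p, miR-145-3p and miR-145-5p), was set against each member's deviation over the 12 libraries. miR-323-3p had a Pearson r of 0.93 and a Spearman rho of 0.92, and r was 0.93 again without the 2 libraries farthest from the median (model 2 and XLHZ 1). The r values were 0.78 for miR-409b, 0.73 for miR-369-5p, 0.72 for miR-369-3p and 0.64 for miR-487b-3p. miR-127-3p was at 0.33. At the other end stood miR-494-3p (r = -0.68, rho = -0.57), miR-411-5p (r = -0.30, rho = -0.22) and miR-299a-5p (r = -0.25, rho = -0.02). These are values over the same 12 libraries, with shared depth and scaling and with the groups left in. The pattern was not particular to smooth muscle miRNAs. The striated muscle list had 22860 and 24460 CPM in model 2 and model 3, its highest libraries, and 4650 CPM in XLHZ 1, its lowest. miR-124-3p was likewise highest in these model libraries (8.96 and 9.2 CPM) and lowest in XLHZ 1 (1.16 CPM). The list for neurons and enteric nerves, which holds miR-124-3p, went the other way. It had 5329 and 5454 CPM in model 2 and model 3 and 7381 CPM in XLHZ 1.

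miR-323-3p and miR-494-3p are printed because they marked the ends of that range. They also share a stretch of 6 bases, ACACGG, given here in capitals with 3 further members that hold it.
miR-323-3p: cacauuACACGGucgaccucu
miR-494-3p: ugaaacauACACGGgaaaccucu
miR-411-3p: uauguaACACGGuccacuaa
miR-485-3p: cauACACGGcucuccucucuuc
miR-154-3p: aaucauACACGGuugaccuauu
The stretch was picked after the sequences were seen and was searched as these letters on the mature strand only. The counts include the pair for which it is shown, so they are a description and no evidence of an excess. It occurred in 5 of the 81 members with a sequence (6.17%) and in 2 of 612 other rat miRNAs in RefSeq (0.327%). The shared letters lie outside the seed in miR-494-3p and overlap it in miR-323-3p, and the pair stood at opposite ends of the range above.

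miR-323-3p had 8.29, 7.63, 4.36 and 3.53 CPM in the normal libraries. It had 9.30, 17.1, 13.5 and 5.75 CPM in the model libraries and 4.55, 9.20, 6.33 and 4.92 CPM in the XLHZ libraries. Model 2 and model 3, the libraries highest in smooth muscle miRNAs, were also its highest. miR-494-3p had 15.7, 17.2, 17.5 and 17.5 CPM in the normal libraries. It had 17.7, 15.7, 10.1 and 21.0 CPM in the model libraries and 28.3, 22.0, 18.7 and 19.2 CPM in the XLHZ libraries. XLHZ 1, the library lowest in smooth muscle miRNAs, was its highest and model 3 its lowest.

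Along the locus, counted from the Dlk1 side, the hairpins with an r of at least 0.64 were miR-323 (the 18th hairpin), miR-487b (the 31st), miR-409b (the 43rd) and miR-369 (the 45th). The cut is arbitrary, and miR-382-5p came next at 0.62. Those with a negative r were miR-411 (the 14th), miR-299a (the 15th), miR-494 (the 21st), miR-376c (the 26th) and miR-541 (the 41st). For miR-376c-3p (r = -0.23) and miR-541-5p (r = -0.17) the rho was positive, at 0.03 and 0.11. Whether r moved with the place in the locus was not tested. A ratio of counts within a library needs no scaling. miR-411-5p and miR-369-3p already had r values of opposite sign in these same libraries, so their ratio is a description and no separate evidence. Counts of miR-411-5p per count of miR-369-3p were 0.912, 1.04, 1.37 and 1.55 in the normal libraries. They were 0.932, 0.826, 0.618 and 1.71 in the model libraries and 2.34, 1.37, 1.83 and 1.42 in the XLHZ libraries. The lowest ratio was in model 3 and the highest in XLHZ 1, and the groups overlapped.

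**Figure D3:**
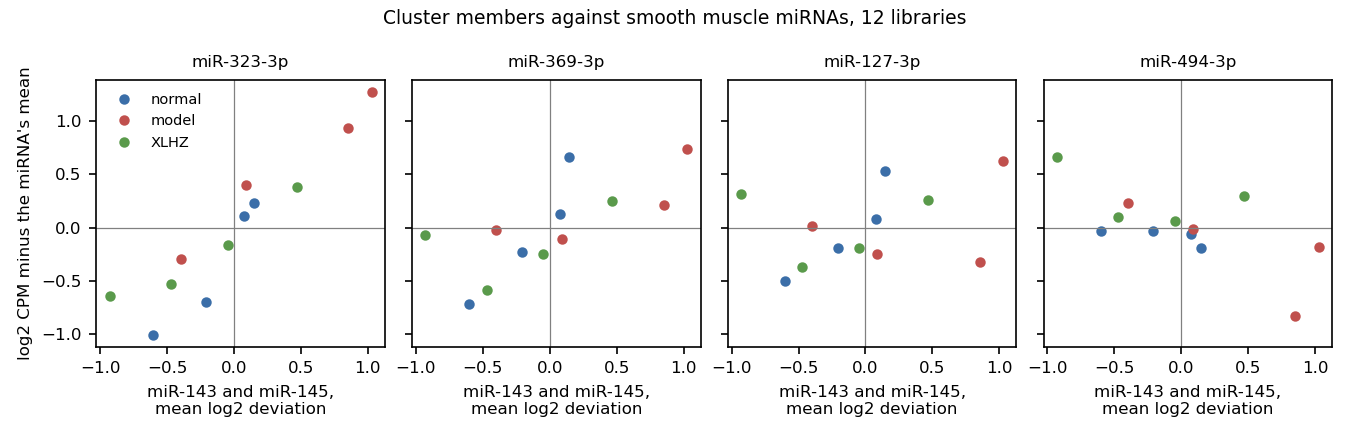
Deviation of 4 members from their own means (vertical axes, log2 units of TMM-scaled CPM) against the mean log2 deviation of the 4 smooth muscle rows, from miR-143 and miR-145 (horizontal axes), 1 point per library, coloured by group. miR-323-3p rises along the axis (r = 0.93), miR-494-3p falls (r = -0.68), and miR-127-3p lies between (r = 0.33).

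The first comparison asked what differed in the cluster between MNNG-exposed mucosa with gastritis and normal mucosa. Of the 83 members, 44 had enough counts to be tested and 39 did not. None of the 44 passed in edgeR (quasi-likelihood test, Benjamini-Hochberg over all 403 miRNAs tested, threshold 0.05), where 0.248% of all miRNAs passed. At an unadjusted p under 0.05 there were 3 members of 44 (6.82%), all higher, against 7.2% of all miRNAs tested. DESeq2 and limma-trend also called 0 members, with 1.74% and 0.248% of all miRNAs called.

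Among the tested members the median log2 fold change, model over normal, was 0.15, and 33 of 44 were above 0. Over all miRNAs tested the median was -0.01 and 49.1% were above 0. Fold changes of members ran from -0.60 for miR-299a-3p to 0.93 for miR-323-3p, and the smallest adjusted p was 0.601 (edgeR). The median was 0.09 for the 11 tested members at Rtl1 and 0.20 for the 31 from miR-379 to miR-410. Since the members vary together, their signs are not separate observations. Without model 2 the median was -0.06 and 15 of 44 members were above 0.

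The 4 members with the smallest p were the arms of miR-380, miR-376b-3p and miR-323-3p. miR-380-3p had 0.799, 0.976, 0.979 and 0.756 CPM in the normal libraries and 1.2, 1.64, 1.28 and 2.37 CPM in the model libraries. It was the 1 member whose groups did not overlap, where 1.49% of all miRNAs tested were higher without overlap and 1.99% lower. Its log2 fold change was 0.88 (SE 0.33), with an edgeR adjusted p of 0.601, and its counts were low. miR-380-5p had means of 0.987 ± 0.123 and 1.88 ± 1.06 CPM, with a log2 fold change of 0.90 (SE 0.42) and an adjusted p of 0.642. Without model 2 its log2 fold change was 0.50.

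miR-376b-3p had 6.99, 7.72, 7.03 and 4.37 CPM in the normal libraries and 9.10, 13.0, 7.60 and 11.4 CPM in the model libraries. Only model 3 fell within the normal range, and the log2 fold change was 0.65 (SE 0.26, edgeR adjusted p = 0.605). miR-323-3p had group means of 5.95 ± 2.36 and 11.4 ± 4.92 CPM (SD, n = 4 each). Its log2 fold change was 0.93 (SE 0.39, edgeR adjusted p = 0.605), with a 95% interval from 0.06 to 1.80. This is the member that followed the smooth muscle miRNAs most closely. The striated muscle list and miR-124-3p, but not the list for neurons and enteric nerves, were high in the same model libraries. The part of any of these in the miR-323-3p difference was not tested. For miR-127-3p the log2 fold change was 0.04, with a 95% interval from -0.60 to 0.68.

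The second comparison asked what differed between exposed mucosa with and without 60 days of the formula. Again 0 of 44 tested members passed in edgeR, where 0.249% of the 401 miRNAs tested passed. DESeq2 and limma-trend likewise called 0 members, each with 0.249% of all miRNAs called. At an unadjusted p under 0.05 there was 1 member, lower in the XLHZ group (2.27%), against 4.24% of all. The median log2 fold change was -0.03 (all miRNAs tested 0.01), with 21 members above 0 and 23 below, and fold changes from -0.88 to 0.81. No member's groups were free of overlap, where 0.998% of all miRNAs were higher and 0.249% lower without overlap. Without model 2 the median was 0.18, with 34 of 44 above 0, and without model 3 it was -0.22, with 8 of 45 above 0.

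miR-323-3p had a mean of 6.25 ± 2.12 CPM in the XLHZ group against 11.4 ± 4.92 CPM in the model group. Its log2 fold change was -0.88 (SE 0.36), with an edgeR adjusted p of 0.725. miR-341, a hairpin known from rodents, had 4.30, 9.18, 4.39 and 3.89 CPM in the model libraries and 4.16, 3.88, 1.86 and 3.73 CPM in the XLHZ libraries. Its log2 fold change was -0.69 (SE 0.36, edgeR adjusted p = 0.725), model 2 was the highest of these libraries, and without it the log2 fold change was -0.32. miR-380-3p had a log2 fold change of -0.69 (-0.44 without model 4) and miR-493-5p one of 0.53, both with an adjusted p of 0.725. The model libraries serve in both comparisons, so the second is not an independent look at the first.

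The third comparison set exposed, formula-treated mucosa against normal mucosa. In edgeR 0 of 44 tested members passed, where 1.5% of the 401 miRNAs tested did. DESeq2 and limma-trend called 0 members as well, with 1.75% and 1.5% of all miRNAs called. At an unadjusted p under 0.05 there was 1 member (2.27%), against 8.73% of all. The median log2 fold change was 0.16 (all miRNAs tested 0.00), and 34 of 44 members were above 0, against 49.1% of all miRNAs tested. Leaving out 1 library gave medians from 0.00 to 0.34, and the signs of members that vary together are not separate observations. Fold changes ran from -0.55 to 0.70. The median was 0.03 at Rtl1 and 0.21 from miR-379 to miR-410.

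miR-493-5p, from the upstream end of the cluster, had 1.498, 1.597, 1.07 and 0.840 CPM in the normal libraries and 2.13, 2.03, 1.58 and 2.54 CPM in the XLHZ libraries. Only XLHZ 3 fell within the normal range, and the log2 fold change was 0.70 (SE 0.29, edgeR adjusted p = 0.493). miR-494-3p was the 1 member whose groups did not overlap, where 3.99% of all miRNAs were higher without overlap and 2.24% lower. Its means were 17.0 ± 0.873 and 22.1 ± 4.44 CPM (SD, n = 4 each), and its log2 fold change was 0.34 (SE 0.17, edgeR adjusted p = 0.567), or 0.22 without XLHZ 1. miR-376b-3p had a log2 fold change of 0.45 (adjusted p = 0.567). miR-134-5p, known for limiting Limk1 in neurons, had one of 0.29 (adjusted p = 0.639).

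**Figure D4:**
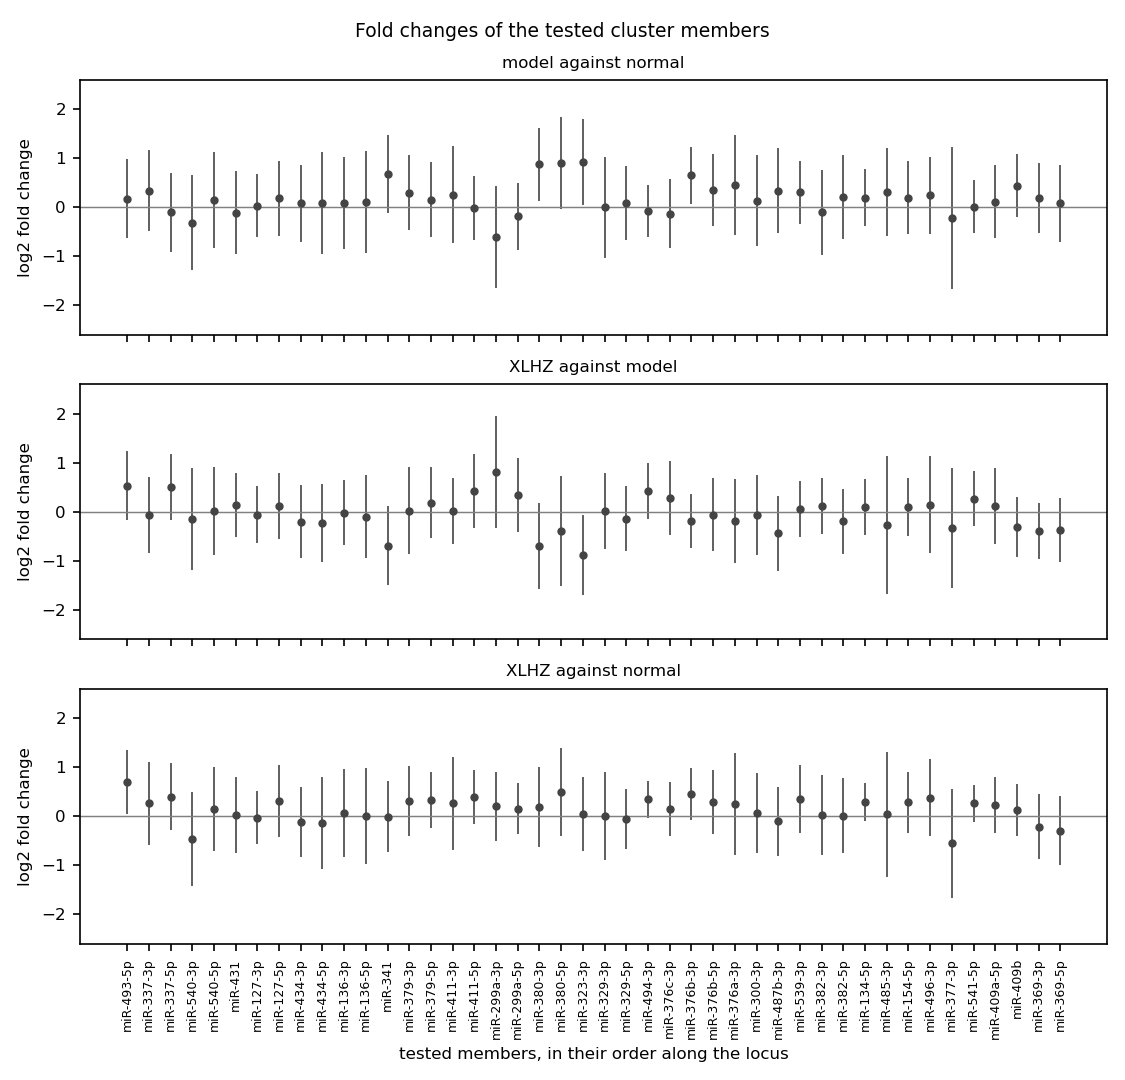
Log2 fold change of the 44 tested members in each comparison, in their order along the locus from the Dlk1 side, with 95% intervals of the edgeR fit (n = 4 per group). Most intervals include 0 in each panel, and no member passed after adjustment.

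A miss of the threshold does not show that the groups were alike. The members' median standard error was 0.35, 0.33 and 0.32 log2 units in the 3 comparisons, against 0.27, 0.26 and 0.20 over all miRNAs tested, so differences of a given size were harder to detect in the cluster.

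The dominant arm of a hairpin was the same in every library. Arm use was read in the 17 hairpins with both arms listed and a mean of at least 100 counts. miR-127 came mainly from its 3p arm, with a mean of 4.86% of its counts on the 5p arm (3.78% to 6.17% over libraries). miR-434 had 16.4% on the 5p arm (11.5% to 19.3%). The 5p arm held 95.2% of the counts of miR-379, 96.4% of miR-382, 97.2% of miR-411 and 99.6% of miR-154. It held 98.6% of miR-541, 91.2% of miR-299a and 99.7% of miR-134. The 3p arm was used almost alone by miR-376c, miR-300, miR-494 and miR-487b, whose 5p shares were 0.874%, 0.818%, 0.131% and 0.145%. For miR-299a the 5p share was 89.7% to 91.2% in the normal libraries and 91.5% to 96.5% in the model libraries, which did not overlap, and 88.2% to 92.1% in the XLHZ libraries. No other hairpin of the 17 read was free of overlap between normal and model. Arm use outside the cluster was not read, so the share over all hairpins is not known. The miR-299a difference was chosen after its values were seen and was not tested. It rests on a 3p arm (miR-299a-3p) with means of 1.90 ± 0.307 and 1.25 ± 0.788 CPM (SD, n = 4 each). The nearest libraries, normal 2 at 91.2% and model 2 at 91.5%, each had 19 counts on that arm.

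A mixed use of both arms was seen in 4 hairpins. The 5p arm held 41.4% of miR-136, 35.2% of miR-369, 69.8% of miR-376b and 73.7% of miR-329. For miR-136 the lowest library, normal 2, had 34.0% (95% Wilson interval 31.1% to 37.1%) and the highest, normal 3, 46.5% (42.9% to 50.1%). These intervals cover counting error only, and both libraries were from the same group. For miR-376b the groups had 72.2% ± 2.53, 67.5% ± 3.82 and 69.8% ± 4.0 (SD, n = 4 each), and they overlapped. Where each arm had a mean of at least 50 counts, both arms of a hairpin moved together. With group means removed, their levels had an r of 0.91 for miR-127, 0.93 for miR-434, 0.93 for miR-136, 0.95 for miR-369 and 0.91 for miR-376b over the 12 libraries. The median r over all pairs of the 29 members was 0.794. With the median of the other members, miR-127-3p had an r of 0.98 and miR-369-3p one of 0.90. The level of an arm also carries the bias of adapter ligation, which differs by sequence, so shares are compared between libraries and not taken as molar ratios.

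**Figure D5:**
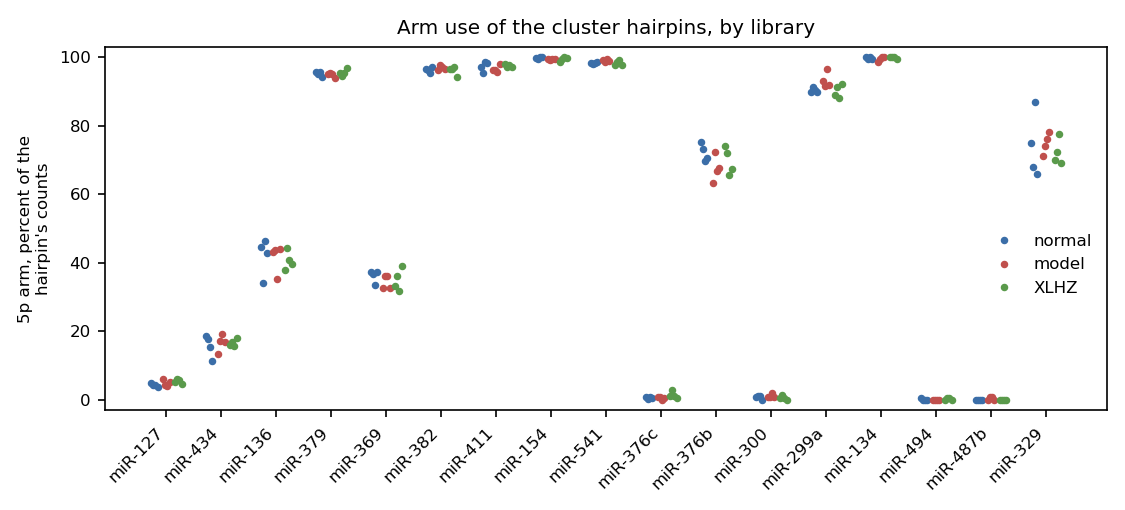
Share of each hairpin's counts on its 5p arm, in percent, for the 17 hairpins with both arms and a mean of at least 100 counts. Points are libraries coloured by group; most hairpins lie near 0% or 100%, and miR-136, miR-369, miR-376b and miR-329 lie between.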

How the data were processed

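Total RNA from gastric mucosa, with RNA integrity numbers above 7.0, went into QIAseq miRNA libraries for Illumina sequencing, per the labels' protocols. The submitters' processing notes list Bowtie and DESeq, with no version. Genome build, counting rule and use of molecular identifiers are not stated in any source used here. Raw counts for each mature miRNA were deposited by the authors as 2 tables, per the file headers. The deposited CPM columns equalled each count over its column total (largest difference 5.0e-05) and served for that check only.

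The tables held 639 and 632 miRNAs, 622 in both. They were joined on the model libraries, whose counts were identical for 621; miR-20b-3p differed and was left out. Of the members, 82 were in both tables and 1 was in a single table and taken as 0 in the other. Groups came from sample titles. Every pair of libraries within a group differed beyond sampling noise (lowest chi-square per degree of freedom 192).

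For each comparison, edgeR 4.0.16 (R 4.3.3; TMM factors, filterByExpr at a minimum count of 10, glmQLFit, glmQLFTest) was run on the 8 libraries of the 2 groups with all miRNAs, and Benjamini-Hochberg adjusted p-values were read at 0.05. DESeq2 1.42.0, limma-trend 3.58.1, other scalings and filters, a replicate block and leaving out libraries were alternatives. The fitting script was tested on simulated data. Arm shares carry Wilson intervals. Named members are the 8 most abundant, any that passed and the 4 with the smallest p in each comparison. Others named were chosen after their values were seen. The members and all lists were chosen with earlier results of these data known.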

Additional observations from a re-analysis of the deposited data

Results flagged for a closer look

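Within groups of 4 libraries, a library was singled out where its gap to the nearest other, over the group's whole range, exceeded Dixon's 95% critical value for 4 samples. This was checked in 102 groups of 4 and met in 8, while chance gives about 1 in 20. Among levels, model 2 had 9.18 CPM of miR-341, with the other model libraries at 3.89 to 4.39, and 100.1 CPM of miR-382-5p, with the others at 47.6 to 52.8. XLHZ 1 had 0.484 CPM of miR-380-5p, with the other XLHZ libraries at 1.65 to 1.86. Normal 1 had 15.7 CPM of miR-494-3p, with the others at 17.2 to 17.5.

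Among arm shares, model 3 had 35.3% of miR-136 on the 5p arm, with the other model libraries at 43.2% to 44.2%. It also had 0.0% of miR-376c there, with the others at 0.642% to 0.739%, a difference of few counts. XLHZ 4 had 99.5% of miR-134 on the 5p arm, with the others at 100.0%, and normal 1 had 0.633% of miR-494 there, with the others at 0.0%. Each of these last results is 1 count on the minor arm with the other libraries tied at 0, which meets the criterion by construction, so they do not bear on the comparison with chance.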

How the results depend on the processing

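Over 56 fits (19, 19 and 18 in the order model against normal, XLHZ against model, XLHZ against normal), 0 members passed at an adjusted p under 0.05. At an unadjusted p under 0.05 there were 0 to 4, 0 to 2 and 0 to 6 members. The median log2 fold change of tested members ranged over -0.06 to 0.40, -0.22 to 0.18 and 0.00 to 0.34 when 1 library was left out, and over 0.04 to 0.20, -0.08 to 0.13 and 0.06 to 0.24 under the other alternatives. Without both model 2 and model 3, an alternative added after seeing the data, it was 0.11 and 0.09 in the comparisons with the model group. Scaling to library totals moved the median of all miRNAs by -0.12 for model against normal and by 0.17 for XLHZ against model.

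Replicate numbers did not pair the libraries throughout: same-numbered deviations had correlations of -0.34 to 0.48. Number 2 matched best with its own number in each pair of groups. Its r was 0.33 for model and normal, 0.21 for XLHZ and normal and 0.48 for XLHZ and model. With the number as a replicate block 0 members passed, with medians of 0.17, -0.01 and 0.15.

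Of 36 results of named members, none of which passed, 19 turned sign in at least 1 of 606 alternatives (52 in all) and 17 did not; the smallest adjusted p was 0.239. For model against normal, miR-411-5p went from -0.02 to 0.0135 with RLE factors, 0.0459 with upper-quartile factors and 0.0137 in DESeq2. Library totals gave -0.0862 for miR-127-3p, -0.0026 for miR-136-3p and -0.0464 for miR-434-3p. For XLHZ against model, library totals gave 0.13 for miR-127-3p and 0.13 for miR-136-3p, and no count filter gave 0.0204 for miR-136-3p. For XLHZ against normal, miR-127-3p was 0.0682 with upper-quartile factors and 0.0431 with library totals.

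Leaving out 1 library gave these ranges for members whose sign turned. For model against normal they were miR-411-5p -0.25 to 0.22, miR-127-3p -0.21 to 0.26, miR-136-3p -0.12 to 0.51, miR-434-3p -0.25 to 0.41, miR-154-5p -0.0485 to 0.42, miR-369-3p -0.0186 to 0.47, miR-379-5p -0.15 to 0.40 and miR-382-5p -0.0942 to 0.59. For XLHZ against model they were miR-154-5p -0.0737 to 0.34, miR-127-3p -0.21 to 0.19, miR-136-3p -0.21 to 0.16, miR-382-5p -0.33 to 0.12, miR-434-3p -0.39 to 0.14 and miR-379-5p -0.0283 to 0.49. For XLHZ against normal they were miR-127-3p -0.15 to 0.20, miR-369-3p -0.38 to 0.0766, miR-434-3p -0.31 to 0.21, miR-136-3p -0.17 to 0.49 and miR-382-5p -0.17 to 0.38. The cause was not tested. Members under 1 CPM lie near single counts, so depth limits them.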
